A study of Gallus gallus with 14 samples.

Results

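A group of 3 lncRNA transcripts, MSTRG.29422.1, MSTRG.29422.2 and MSTRG.29422.3, was assembled on the plus strand of chromosome Z. The authors' annotation pairs them with the gene PRLR, which lies on the opposite strand. They are all the entries assembled under the identifier MSTRG.29422, 3 of the 9977 lncRNAs in the expression table of the uterovaginal junction (UVJ), the site of sperm storage at the cranial end of the vagina of the hen. The locus was chosen from earlier results of these data, in which fragments were counted on it in hens of the prefix JH and next to none in hens of the prefix JF. The JH and JF values below are therefore a description, given without a test.

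Each library was prepared from total UVJ RNA of 1 egg-type hen after artificial insemination. The hens were 7 with a long duration of fertility (long-DF), namely JH14, JH25, JH95, JH104, JF25, JF61 and JF64, and 7 with a short duration (short-DF), namely JH49, JH68, JH109, JH130, JF21, JF40 and JF56. Both groups received the same insemination and feed, came from the same farm and were selected from a larger flock on the days and number of fertile eggs. What the prefixes JH and JF stand for is not given in the sources used here, so a difference in line, housing or handling between them cannot be told apart. The table holds lncRNAs only, and the UVJ could not be checked against protein-coding markers, nor could the level of PRLR itself be read. Between 213304 and 281892 fragments per hen fell on lncRNAs. In this bulk tissue, fewer cells that make a transcript and less of it per cell cannot be told apart.

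PRLR encodes the receptor of prolactin, a membrane protein of the cytokine receptor class that signals through JAK2 and STAT5. In birds prolactin is known for its role in incubation behaviour and in the end of laying, and its receptor is made in the oviduct among other tissues. Long non-coding RNAs made from the strand opposite to a gene can share its region without coding for a protein, and for many of them no function is known. In chickens PRLR is also known from a sex-linked allele for slow feather growth, which carries a partial duplication of PRLR and of its neighbour SPEF2, a gene named for the sperm flagellum.

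The 3 transcripts share a start region and differ in where they end. MSTRG.29422.1 is the longest, with 3 exons and 5615 nt between positions 10480521 and 10506963 of chromosome Z on Galgal4. Its last exon of 5233 nt makes up most of it. MSTRG.29422.3 has 4 exons and 3983 nt between 10480598 and 10505306, and differs from MSTRG.29422.1 by an additional exon of 102 nt and a shorter last exon of 3576 nt. MSTRG.29422.2 is a short form with 2 exons and 1323 nt, and ends at 10481973, within the first intron of MSTRG.29422.1 and MSTRG.29422.3. The authors' annotation gives all 3 the same transcription start group, although the starts differ by up to 77 nt, and in each of them the first exon ends at 10480853.

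The annotation compares the locus with the PRLR transcript ENSGALT00000039164. MSTRG.29422.1 and MSTRG.29422.3 overlap an exon of PRLR on the opposite strand, while MSTRG.29422.2 lies within an intron of PRLR. Of the bases of MSTRG.29422.3, 97.4% are also exon in MSTRG.29422.1, and 102 nt (2.56%) belong to it alone. MSTRG.29422.1 has 1691 nt (30.1%) of its own and MSTRG.29422.2 has 1024 nt (77.4%). Whether fragments of the bases shared by MSTRG.29422.1 and MSTRG.29422.3 were divided or counted on both thus depends on the counting method. Its name and use of strand are not given in the sources used here. Any fragment counted on both would enter the sums and shares of the locus below more than once. Where MSTRG.29422.1 and MSTRG.29422.3 cross a PRLR exon, fragments of the receptor and of the antisense RNA cannot be told apart from the table. MSTRG.29422.2 holds no PRLR exon, so for it this overlap of exons does not arise. Whether fragments of RNA still holding the intron were counted on MSTRG.29422.2 was not tested.

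**Figure D1:**
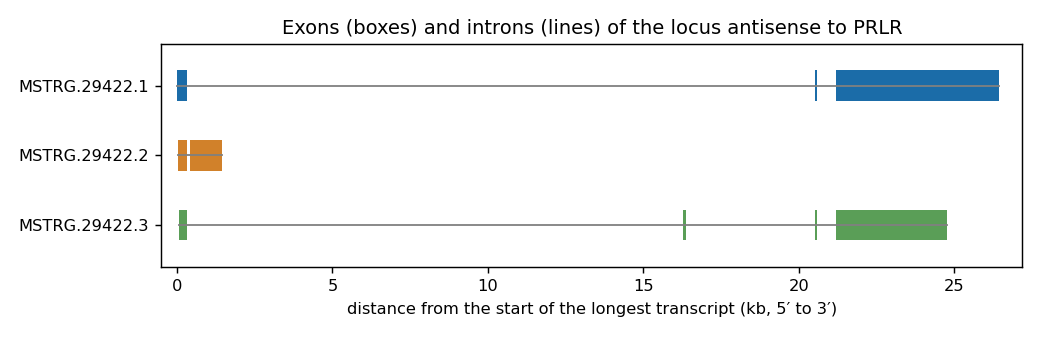
Exon structure of the 3 transcripts of the locus, with distance in kb from the start of MSTRG.29422.1 along the x axis, exons as boxes and introns as lines. MSTRG.29422.2 ends in the region where the others have their first intron, and the last exon is 5233 nt in MSTRG.29422.1 against 3576 nt in MSTRG.29422.3.

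The locus was counted in every JH hen and was at or next to 0 in every JF hen. On MSTRG.29422.1 there were 82, 120, 80 and 99 fragments in the long-DF JH hens and 125, 116, 72 and 70 in the short-DF JH hens, in the order of the hens above. Among the JF hens it had 1 fragment in the short-DF hen JF40 and 0 in the other 5. The lowest JH hen was 70 fragments above 0, and the prefixes did not overlap. In FPKM, the fragments scaled by transcript length and by the size of the library, MSTRG.29422.1 averaged 2.56 ± 0.610 in JH hens (SD, n = 8) and 0.00393 ± 0.00964 in JF hens (SD, n = 6). Relative to library size, its 764 fragments in JH hens against 1 in JF hens made a ratio of 655, with a 95% interval of 117 to 25906 (exact binomial). This interval covers counting error of the pooled fragments only. It leaves out the variation between hens, and copies made by PCR were not told from separate molecules. Since the locus was chosen for this contrast, the interval is no test of it. The single fragment in JF40 sets the ratio. Without that hen it became a bound of at least 182-fold, with 3 fragments allowed over the other JF hens pooled.

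MSTRG.29422.3 had 72, 66, 43 and 32 fragments in the long-DF JH hens and 28, 48, 52 and 37 in the short-DF JH hens, and 0 in each of the 6 JF hens. Its FPKM was 1.78 ± 0.605 in JH hens (SD, n = 8). With 3 fragments over all JF hens pooled as the upper limit that a count of 0 allows, it was at least 108-fold higher in JH hens. This bound covers counting error of the pooled JF fragments only. It leaves out the error of the JH count and the variation between hens. The lowest JH hen, JH104, had 1.15 FPKM of MSTRG.29422.3, while 3 fragments of it in a single JF hen would be 0.0870 to 0.108 FPKM.

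The short form behaved likewise. MSTRG.29422.2 had 23, 42, 15 and 22 fragments in the long-DF JH hens, 27, 15, 14 and 8 in the short-DF JH hens, and 0 in each JF hen. It averaged 2.36 ± 1.16 FPKM in JH hens (SD, n = 8). By the same bound on pooled JF fragments, with the same limits, it was at least 47.4-fold higher there. Its lowest JH hen, JH130, had 0.964 FPKM, while the 3 fragments that a count of 0 allows per JF hen are 0.262 to 0.325 FPKM for this short transcript.

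**Figure D2:**
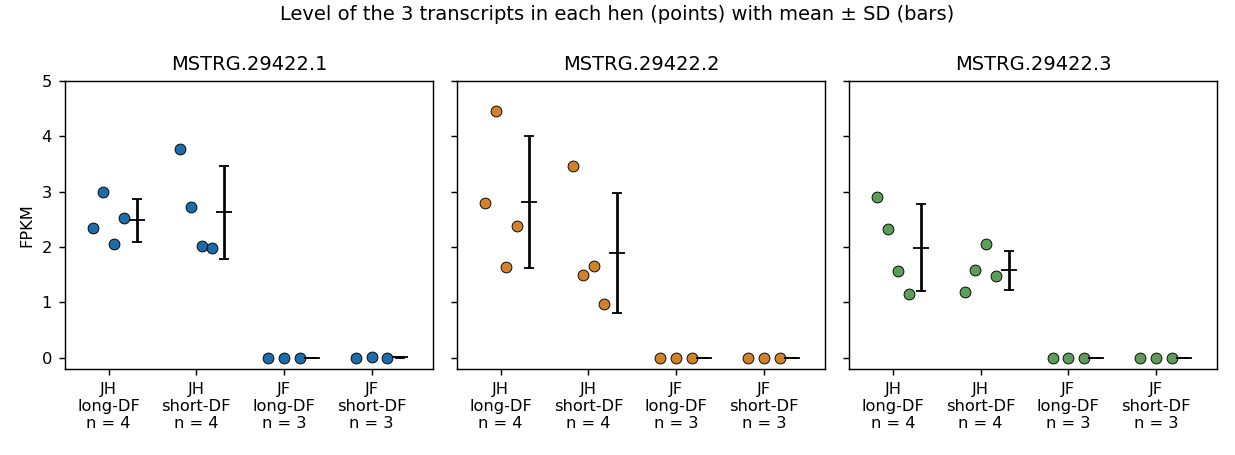
FPKM of each transcript on the y axis, with 1 point per hen, by prefix and duration of fertility, and bars for the mean ± SD. The JH hens lie between 0.964 and 4.45 FPKM over the 3 transcripts, and all JF hens lie at 0 except JF40, with 0.0236 FPKM of MSTRG.29422.1.

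For all 3 transcripts the lowest JH hen was above the highest JF hen. The filter for testing kept 6887 lncRNAs that reached 0.1 FPKM in 7 or more hens, and the same held for 78 of them, or 1.13%. A call required an adjusted p no higher than 0.05, an unadjusted p no higher than 0.01 and a log2 fold change of 2 or more in size in edgeR's quasi-likelihood test. Higher expression in JH hens was called for 110 lncRNAs, or 1.60%, and lower expression for 80. The 8 JH hens can pass the filter alone and the 6 JF hens cannot, so these shares are not neutral between the prefixes. The 3 transcripts passed it through JH hens only. Without the FPKM filter, 102 of 9868 lncRNAs were called higher and 100 lower in JH hens. Since the locus was chosen for this contrast, nothing is read from its place among the lncRNAs called. The library totals behind the FPKM were 5900805 to 7571243 fragments in JH hens beside 6982881 to 8662124 in JF hens, and their part in the contrast was not tested.

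A stricter pattern was more than 3 fragments in every JH hen and 3 or fewer in every JF hen. It was met by 14 lncRNAs of the table (0.14%), and by 5 of the 469 on chromosome Z (1.07%). The 3 transcripts of the locus, which was chosen for this contrast, are among these 5. The share on Z is raised by that choice and is no result about the chromosome. The other pair on Z are NONGGAT011606.2, a known lncRNA of 2741 nt from 965777 to 968760 with 14 to 76 fragments in JH hens and 0 in JF hens, and the intergenic MSTRG.30171.2 from 45810168 to 45811263 with 7 to 15 fragments in JH hens and 0 to 3 in JF hens. By the median FPKM in JH hens the transcripts of the locus stood 8th, 11th and 13th of the 14, below NONGGAT013023.1 with 7.33 FPKM, MSTRG.7526.1 with 6.10 FPKM and MSTRG.2187.2 with 5.21 FPKM. By fragments, the lowest JH hen had 70 on MSTRG.29422.1, 28 on MSTRG.29422.3 and 8 on MSTRG.29422.2, while it had 4 to 28 on the 11 lncRNAs outside the locus, with 28 on MSTRG.2187.2. The reverse pattern was met by 19 lncRNAs of the table (0.19%) and by 0 of the 469 on chromosome Z. At this share 0 of 469 is no result about the chromosome. In the reverse pattern the highest median FPKM were those of MSTRG.7525.1, NONGGAT006568.2 and MSTRG.3554.2. MSTRG.7525.1, on chromosome 16, had 0 or 1 fragments in JH hens against 80 to 113 in JF hens.

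The abundance of the locus in JH hens was moderate. The median of MSTRG.29422.1 over the 8 JH hens was 2.44 FPKM, and 81.7% of the lncRNAs of the table had a lower median. It was 2.02 FPKM for MSTRG.29422.2 and 1.58 FPKM for MSTRG.29422.3, with 79.0% and 75.3% of the lncRNAs lower. Of the 9977 lncRNAs ranked, 7004 reached 0.1 FPKM in 4 or more JH hens, so these shares also count lncRNAs near 0. Among the 568 unknown lncRNAs antisense to an exon, 70.4% had a lower median than MSTRG.29422.1. Summed over its 3 transcripts, the locus had 6.70 ± 1.84 FPKM in JH hens (SD, n = 8), between 4.43 FPKM in JH130 and 9.78 FPKM in JH25.

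The levels varied among the JH hens, which are separate animals. The coefficient of variation of the FPKM was 23.9% for MSTRG.29422.1, beside a counting error of 10.2% at its mean of 95.5 fragments. For MSTRG.29422.3 it was 33.9% beside 14.5%, and for MSTRG.29422.2 it was 49.3% beside 21.95%. The counting error does not include the variation between animals, PCR copies or the division of fragments between overlapping transcripts. The highest JH hen exceeded the lowest 1.90-fold, 2.53-fold and 4.62-fold for these transcripts. MSTRG.29422.1 was highest in JH49, MSTRG.29422.2 in JH25 and MSTRG.29422.3 in JH14, so no hen led in all 3. Across the 8 JH hens, Pearson's r between MSTRG.29422.1 and MSTRG.29422.2 was 0.71, and Spearman's rho was 0.69. Between MSTRG.29422.1 and MSTRG.29422.3, which share most of their bases, r was -0.23 and rho was -0.07. Each value comes from the same library and the same region for both transcripts, and these coefficients are descriptions.

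Duration of fertility was then compared at the locus. Over all 14 hens, edgeR's quasi-likelihood test gave MSTRG.29422.1 a log2 fold change of -0.07 in long-DF against short-DF hens (standard error 1.24, adjusted p = 0.996). MSTRG.29422.2 had 0.57 (standard error 1.07, adjusted p = 0.995) and MSTRG.29422.3 had 0.27 (standard error 1.17, adjusted p = 0.995), also in edgeR. Thus 0 of the 3 transcripts were called, where 0% of the 6887 lncRNAs tested were called. Before adjustment, 146 of these lncRNAs lay under a p of 0.05. None of the 3 had an unadjusted p under 0.05, and DESeq2 and limma called 0 of them as well. The standard errors are wide, since each group mixes 4 JH and 3 JF hens. Fragments of the locus were counted in the JH hens and next to none in the JF hens. The study had selected these transcripts on the same libraries, so the test is not independent evidence of a direction.

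Within the JH hens, where the locus was counted, the error was smaller. MSTRG.29422.1 had 2.35, 2.998, 2.06 and 2.53 FPKM in the long-DF JH hens, against 3.77, 2.73, 2.02 and 1.99 FPKM in the short-DF JH hens. The groups overlapped, and the log2 fold change was -0.04 (standard error 0.22, adjusted p = 0.989 in edgeR). MSTRG.29422.3 had 2.91, 2.32, 1.56 and 1.15 FPKM in the long-DF JH hens, against 1.19, 1.59, 2.05 and 1.48 FPKM in the short-DF JH hens. In edgeR the log2 fold change of MSTRG.29422.3 was 0.30, with a standard error of 0.29 and an adjusted p of 0.989, and with both the highest and the lowest hen in the long-DF group.

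MSTRG.29422.2 was furthest apart, with 2.80, 4.45, 1.64 and 2.38 FPKM in the long-DF JH hens and 3.46, 1.497, 1.67 and 0.964 FPKM in the short-DF JH hens. On the log2 scale the groups differed by 0.59 with a standard error of 0.41, which did not pass the test (edgeR adjusted p = 0.989, unadjusted p = 0.179). The short-DF hen JH49 lay above 3 of the 4 long-DF JH hens. Of the 3 transcripts 0 were called, and 0.0143% of the 7004 lncRNAs tested within JH hens were, namely 1. A change of the size that the call rule requires, 2 on the log2 scale, would exceed 4 of these standard errors for each transcript. Whether such a change in these 3 transcripts would also pass the adjusted p over the 7004 lncRNAs was not tested.

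The locus as a whole gave the same picture. Summed over the transcripts, the FPKM was 8.06, 9.78, 5.26 and 6.06 in the long-DF JH hens and 8.42, 5.82, 5.74 and 4.43 in the short-DF JH hens. On the scale of log2(FPKM + 0.1) the means were 2.85 ± 0.396 in long-DF JH hens and 2.596 ± 0.375 in short-DF JH hens (SD, n = 4 each). The difference of 0.25 was within the spread between hens (two-sided exact permutation test over the 70 splits, p = 0.4, where 0.0286 is the smallest p possible). In the JF hens the locus cannot be compared by duration of fertility, as a single fragment was counted on it in all.

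The division of fragments among the transcripts differed between hens. MSTRG.29422.1 took 46.3%, 52.6%, 58.0% and 64.7% of the fragments of the locus in the long-DF JH hens, and 69.4%, 64.8%, 52.2% and 60.9% in the short-DF JH hens. The lowest share, in JH14, had a 95% Wilson interval of 39.1% to 53.7%, and the highest, in JH49, one of 62.4% to 75.7%. These intervals cover counting error only. They leave out how the counting method divided fragments between MSTRG.29422.1 and MSTRG.29422.3, or whether it counted some on both. The intervals are therefore no test of a difference between hens. MSTRG.29422.3 made up the difference in them, with 40.7% in JH14 and 15.6% in JH49, while MSTRG.29422.2 had 13.0% and 15.0%. Over all JH hens the short form took between 6.96% and 18.4% of the fragments. The mean share of MSTRG.29422.1 was 55.4 ± 7.81% in long-DF JH hens and 61.8 ± 7.33% in short-DF JH hens (SD, n = 4 each). This difference of -6.41 percentage points was within the spread between hens (two-sided exact permutation test, p = 0.286).

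**Figure D3:**
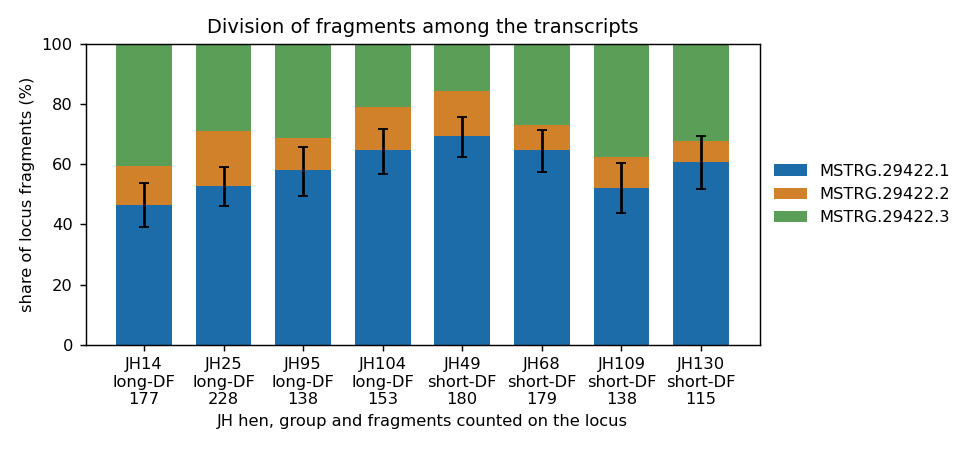
Share of the fragments of the locus on each transcript, in percent on the y axis, in the 8 JH hens, with the fragments counted under each name and the 95% Wilson interval of MSTRG.29422.1 as bars. MSTRG.29422.1 has the lowest share in JH14, at 46.3%, and the highest in JH49, at 69.4%.

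No other lncRNA of the table overlaps the span of the locus on either strand, and 7 lie within 500 kb of it. Before it, NONGGAT011675.2 is 52826 nt away and NONGGAT011673.2 is 251099 nt away, and neither had more than 3 fragments in any hen. After it, NONGGAT011676.2 and NONGGAT011677.2 are 191363 and 192614 nt away, and NONGGAT011679.2 is 350871 nt away. NONGGAT011676.2 had 51 to 175 fragments in JH hens and 55 to 109 in JF hens, so the prefixes overlapped. NONGGAT011677.2 had 42 to 132 in JH hens and 48 to 86 in JF hens, and NONGGAT011679.2 had 40 to 129 in JH hens and 40 to 113 in JF hens. The last pair of the 7, NONGGAT016569.1 and NONGGAT016570.1, did not pass the filter and had at most 1 fragment in a hen.

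These neighbours were not chosen by their JH and JF values and could be tested, with duration of fertility as a covariate. The log2 fold change in JH against JF hens was 0.49 for NONGGAT011676.2 (standard error 0.19, adjusted p = 0.162 in edgeR), 0.21 for NONGGAT011677.2 (standard error 0.19, adjusted p = 0.636) and 0.48 for NONGGAT011679.2 (standard error 0.29, adjusted p = 0.410). Of the 5 that passed the filter 0 were called by edgeR, where 2.76% of the 6887 lncRNAs tested were called in either direction. The filter behind this share can be passed by JH hens alone but not by JF hens alone. DESeq2 called 0 as well, but gave no adjusted p for NONGGAT011673.2 and so could not call it. In edgeR, NONGGAT011676.2 and NONGGAT011673.2 had an unadjusted p under 0.05. For NONGGAT011673.2, with 0 or 1 fragments in JH hens and 0 to 3 in JF hens, no fold change is given. Nor is one given for NONGGAT011675.2, with 1 or 2 fragments in JH hens and 0 to 3 in JF hens. At this share 0 of 5 is no result about the neighbours, and 4 of the 7 lncRNAs around the locus had fewer than 4 fragments in every hen.

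**Figure D4:**
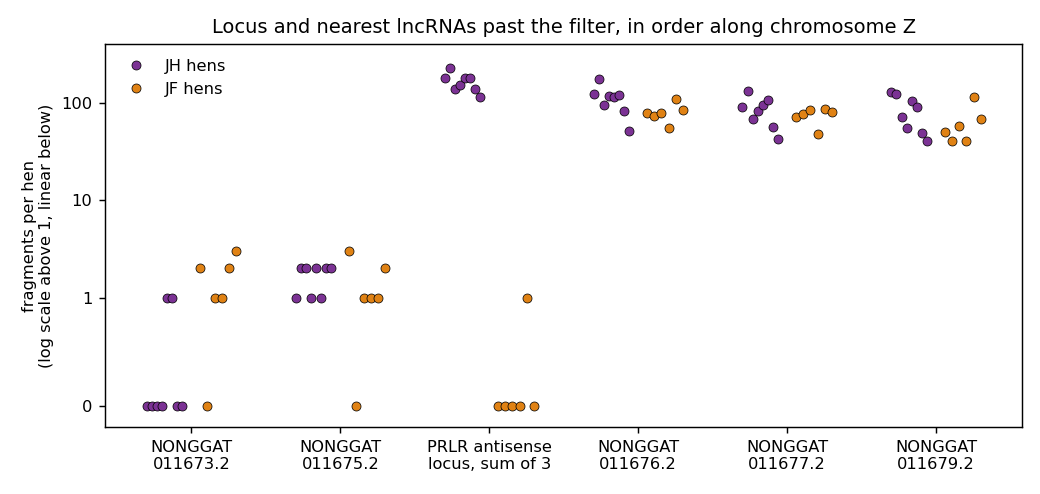
Fragments per hen on the y axis, logarithmic above 1 and linear below, for the locus summed over its transcripts and for the 5 nearest lncRNAs that passed the filter, in their order along chromosome Z, with 1 point per hen. The locus has 115 to 228 fragments in JH hens and 0 or 1 in JF hens, while JH and JF hens overlap for each of the other 5.

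Likeness to MSTRG.29422.1 was measured as the mean absolute difference in log2(FPKM + 0.1) over the 14 hens, where a smaller value means a closer profile. Outside the locus, only lncRNAs past the filter were ranked. The measure spans both prefixes, so it favours lncRNAs near 0 in JF hens, the contrast for which the locus was chosen. The ranking is therefore a description. The closest lncRNA outside the locus was NONGGAT011606.2 on chromosome Z, at 0.247, nearer than MSTRG.29422.2 at 0.263 and MSTRG.29422.3 at 0.368. It had 0.804 to 3.66 FPKM in JH hens and 0 in JF hens. MSTRG.30180.3 followed at 0.357, from 46140085 to 46144906 of chromosome Z on the minus strand, antisense to an exon of EPB41L4A, with 3 to 13 fragments in JH hens and 0 in JF hens. The next were MSTRG.11758.1 on chromosome 20 at 0.449, NONGGAT004097.2 on chromosome 2 at 0.499 and MSTRG.26317.1 on an unplaced sequence at 0.525. These rested on few fragments, with at most 7, 11 and 6 in a JH hen.

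A list of 13 genes was looked up in the annotation, made up of the neighbour SPEF2 and of genes of prolactin and growth hormone signalling and release, among them GHR, JAK2, STAT5B and PRL. PRLR was named beside 3 unknown lncRNAs, which are the transcripts of the locus itself. The other 12 genes had 0 among the 738 unknown lncRNAs that the annotation pairs with a gene. No share over all genes was set beside this, so the lookup is no result about the list. Known lncRNAs carry no such pairing and were not covered.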

How the data were processed

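Libraries were prepared with a stranded total RNA kit from the UVJ of 14 hens, 1 library per hen. The authors used TopHat for mapping to Galgal4, StringTie for the assembly and Gffcompare for the comparison with known genes, and then filtered for lncRNAs. They deposited a count of fragments per transcript and hen without normalization, and the FPKM, which the authors scaled by transcript length and a library total. This total was worked back from the count, the length and the FPKM. Lengths and positions, per the file headers and the deposited annotation, were used as given.

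Counts were fitted in edgeR 4.0.16 (R 4.3.3) with TMM normalization and the quasi-likelihood F test over every lncRNA that reached 0.1 FPKM in 7 or more of the 14 hens, or in 4 or more of 8 within JH hens. The Benjamini-Hochberg adjustment covered all lncRNAs tested. The standard error is the size of the log2 fold change over the root of F. A count of 0 was taken to allow 3 fragments, over the pooled JF hens for a bound on a ratio and per hen for a level in FPKM. Single values were tested by exact permutation over hens in Python 3.11.15. The exact binomial and Wilson intervals came from scipy 1.17.1. Tables were handled with pandas 2.3.3 and numpy 2.4.6, and figures used matplotlib 3.10.9. The fits were tested on simulated data in which lncRNAs drawn at random were changed, and the recovery is not reported here. Replicates are separate hens, numbered by their place in the labels. Alternatives were median-ratio size factors, DESeq2 1.42.0, limma 3.58.1 on log2(FPKM + 0.1), other filters and pseudocounts, the prefix as a covariate and leaving out each hen. The number of columns without a sample was 0.

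Named were all transcripts of the locus, lncRNAs overlapping its span, up to 3 lncRNAs past the filter on each side within 500 kb, the 5 closest in profile, and the 3 highest of each pattern of presence by prefix. The members and lists were chosen with earlier results of these data known. No sequence is shown, as none was given for Galgal4. Levels of mRNA and qPCR were not analysed here.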

Additional observations from a re-analysis of the deposited data

Results flagged for a closer look

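For a hen that stands apart, 40 groups of 4 to 8 hens were examined. They covered the 3 transcripts, their sum and shares and the 5 neighbouring lncRNAs. Of these groups 1 held such a hen. The groups share hens, so the number was not compared with chance. The FPKM of NONGGAT011675.2 in the short-DF JH hen JH68 was 0.139, lower than in the other short-DF JH hens, which at 1 or 2 fragments per hen is a difference of a single fragment. For the transcripts of the locus, their sum and their shares, 0 hens stood apart within the JH hens.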

How the results depend on the processing

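Of the 99 fits of long-DF against short-DF hens for the 3 transcripts under an alternative, 0 gave a call, and 11 turned the direction, each by leaving out a hen. They concerned MSTRG.29422.1 in 10, over all hens (-0.35 to 0.31 over the hens left out) and within JH hens (-0.13 to 0.14), and MSTRG.29422.3 in 1, over all hens (-0.10 to 0.64). The direction of these log2 fold changes is thus not fixed. For MSTRG.29422.2 it was positive throughout, between 0.34 and 0.997 within JH hens and between 0.12 and 1.17 over all hens, and the highest value in each came without JH49. The adjusted p for the 3 transcripts ran from 0.881 to 0.99998. Within JH hens and without JH49, the unadjusted p of MSTRG.29422.2 in edgeR was 0.0278, against 0.179 with JH49 kept. Its adjusted p without JH49 was 0.992. With the prefix as a covariate, the log2 fold changes were -0.14, 0.56 and 0.26 for MSTRG.29422.1, MSTRG.29422.2 and MSTRG.29422.3.

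Over all hens DESeq2 called 2 lncRNAs in place of 0, and leaving out a hen gave 0, or 1 without JH68. Within JH hens the number called was 1, and it was 2 with an FPKM of at least 0.5, 10 in limma and 7 in DESeq2. It was 2 without JH130, and it fell to 0 when any other JH hen was left out. The cause was not tested. Between the prefixes 190 lncRNAs were called in either direction, and 158 to 201 with a hen left out. The difference of the summed locus within JH hens was between 0.10 and 0.41 with a hen left out, and that of the share of MSTRG.29422.1 was between -9.63 and -3.39 percentage points, with an exact permutation p of at least 0.114 under every alternative. The ratio of JH to JF hens for MSTRG.29422.1 was 595 with the fragments on lncRNAs as library size. It was between 182 and 674 with a hen left out, the lowest being the bound without JF40. These alternatives for the ratio were all chosen after seeing the data. No paired analysis was possible because the hens of the groups are different animals, whose replicate numbers are only their places in the labels.

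The precision is set by 115 to 228 fragments on the locus per JH hen, and by 8 to 42 for MSTRG.29422.2. The groups within JH hens hold 4 hens each.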
